A study of Danio rerio with 2 samples.

Results

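The genes of the mitochondrial respiratory chain, those encoded by mitochondrial DNA and those encoded in the nucleus, were followed in RNA from hearts of zebrafish (Danio rerio) on the AB background at 48 hours post fertilization, with 1 library labelled kctd10 -/- (mutant) and 1 labelled wild type. The mutated gene, kctd10, encodes an adaptor of the Cullin 3 ubiquitin ligase. Nothing in the labels gives the allele, the number of hearts pooled, or how the hearts were dissected. Members were taken by name from the authors' gene table: mitochondrial mt-nd, mt-co, mt-cyb and mt-atp genes, and nuclear names that begin with nduf (a, b, c, s or v), sdh (a to d), uqcr, cox (4 to 8) or atp5, plus cyc1. Of 117 matching rows, 115 had at least 10 counts over both libraries, out of 24009 such genes in the series. They comprised 13 mitochondrially encoded subunits, 91 nuclear subunits and 11 assembly factors or other genes that share the name stems. The rows below 10 counts, NDUFA4L2 (2 of 2) and SDHB (2 of 2), had 0 counts in the library labelled mutant and 1 in the library labelled wild type each.

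The respiratory chain sits in the inner mitochondrial membrane. Complexes I to IV pass electrons from NADH and succinate to oxygen and build a proton gradient, and complex V, the ATP synthase, uses that gradient to make ATP. Complexes I, III, IV and V are assembled from subunits of both genomes: a small set of membrane subunits is read from mitochondrial DNA as long polycistronic transcripts, and the remaining subunits, part of the catalytic machinery among them, are read from nuclear genes and imported, while complex II is wholly nuclear. The adult vertebrate heart draws most of its ATP from this pathway.

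The library totals were 139099775 gene counts in the library labelled mutant and 150001992 in the library labelled wild type. With 1 library per genotype there is no replicate check, so each ratio speaks of these libraries alone and carries no p-value. Ratios divide the TMM-scaled count under the mutant label by that under the wild-type label, with an exact 95% Clopper-Pearson interval that covers counting error only. A gene is called higher or lower when its whole interval lies beyond 1.5-fold. kctd10 itself had 19942 counts in the library labelled mutant and 8226 in the library labelled wild type, a ratio of 2.57 (2.5 to 2.64). That goes against a loss of transcript. With the allele not given, this level cannot tell whether the labels are right, and they are used as names only. The RNA held markers of heart muscle and of other tissues, at unequal levels. Of 10 cardiomyocyte markers 6 were higher and 0 lower, with a median log2 ratio of 0.67. Of 16 skeletal muscle markers 0 were higher and 14 lower, with a median of −2.55. The shares of all measured genes were 6.03% higher and 6.66% lower. The epidermal keratin gene krt4 alone had 2975239 counts in the library labelled mutant and 4500426 in the library labelled wild type. In such bulk RNA, fewer cells of a type and less RNA per cell cannot be told apart.

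The mitochondrially encoded genes took a larger share of the library labelled mutant than of the library labelled wild type, and the nuclear subunits took nearly the same share of each. The 13 mitochondrial genes held 2.43% of gene counts (95% Clopper-Pearson interval 2.426 to 2.431) in the library labelled mutant and 1.64% (1.642 to 1.646) in the library labelled wild type. The 91 nuclear subunits held 1.02% (1.019 to 1.022) in the library labelled mutant and 0.985% (0.983 to 0.986) in the library labelled wild type. All 13 mitochondrial genes had an interval wholly above 1, with ratios from 1.198 to 1.62 and a median log2 ratio of 0.48. Of all 24009 measured genes, 8178 had an interval wholly above 1 and 8188 wholly below. The nuclear subunits ranged from 0.576 to 1.315 with a median log2 ratio of 0.06, against a median of 0.00 over all measured genes. These directions depend on the scaling: relative to the median of the cardiomyocyte markers, which shifts every log2 ratio by −0.67, the medians were −0.20 for the mitochondrial genes and −0.61 for the nuclear subunits. The gap between both gene sets is free of any common scaling and was 0.41 on the log2 scale, or 1.33-fold.

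At the 1.5-fold limit few members were called. In complex IV, mt-co1 was higher and COX4I2 (2 of 2) was lower. Over all measured genes 6.03% were higher and 6.66% lower by the same rule, and among the 2010 genes with at least as many counts as the least counted mitochondrial gene 5.12% were higher and 3.73% lower. Calls were thus no more frequent among the 115 members than among genes at large. At a smaller limit, the whole interval had to lie more than 25% above an even ratio, or below the inverse of that limit, 0.8. Under TMM 11 of 13 mitochondrial genes were then higher, against 12.1% of all measured genes and 11.4% of those 2010 well counted genes. None of the 91 nuclear subunits was higher at that limit, and 2, both named after COX4I2, were lower, against 12.8% of all measured genes and 10.9% of the 2010. Of the 11 assembly factors and other genes, ndufaf6 and sdhaf2 were higher. Scaled to the cardiomyocyte markers, none of the 13 mitochondrial genes was higher at that limit. The share of all genes at that limit was not taken under that scaling.

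**Figure D1:**
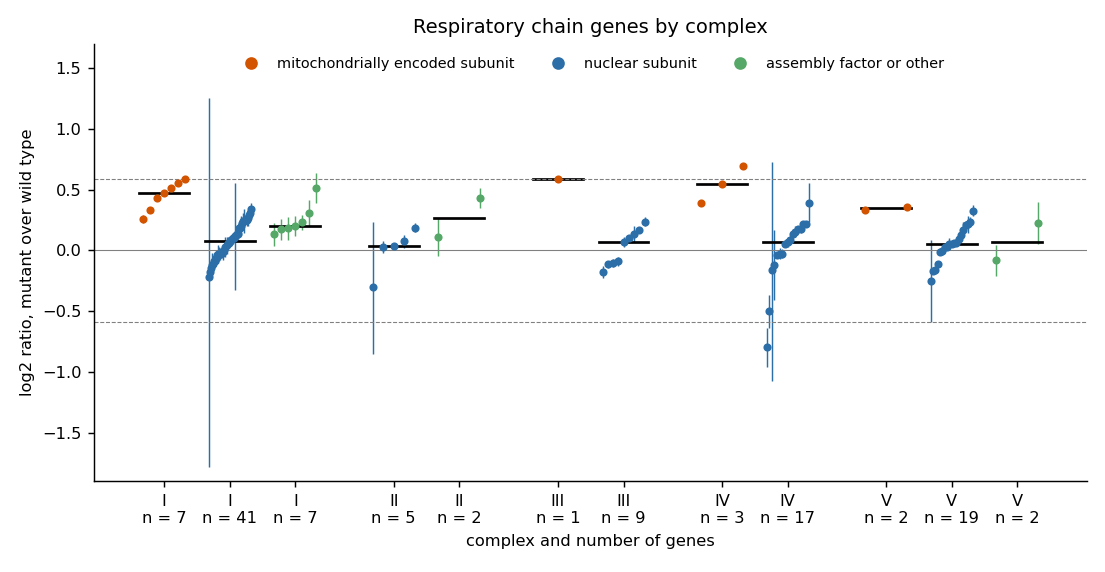
Log2 ratio between the libraries (mutant label over wild-type label) for the 115 measured genes, by complex, with 95% counting intervals, medians as black bars and dashed lines at 1.5-fold. In complexes III and V every mitochondrially encoded subunit lies above every nuclear subunit, in complex IV cox7a1 lies level with mt-co3 (both 1.315), and in complex I 4 of 41 nuclear subunits exceed mt-nd3.

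Complex I, the NADH dehydrogenase, holds 7 mitochondrial subunits, all in its proton-pumping membrane arm. mt-nd5, an antiporter-like pump subunit at the far end of that arm, had 190947 counts in the library labelled mutant and 141478 in the library labelled wild type, a ratio of 1.43 (1.42 to 1.44). The other antiporter-like subunits, mt-nd4 and mt-nd2, had 191352 and 164112 counts in the library labelled mutant, against 150213 and 125005 in the library labelled wild type. Their ratios were 1.349 and 1.391. Of the subunits that join the membrane arm to the quinone site, mt-nd1 had 155947 counts in the library labelled mutant and 130801 in the library labelled wild type (1.263, 1.254 to 1.272). mt-nd3, with 14626 counts in the library labelled mutant and 12934 in the library labelled wild type, had the lowest ratio of all 13 mitochondrial genes, 1.198 (1.17 to 1.227). mt-nd6 had 60547 counts in the library labelled mutant and 43762 in the library labelled wild type (1.466, 1.448 to 1.484). For mt-nd4l the counts were 37664 in the library labelled mutant and 26500 in the library labelled wild type (1.506, 1.482 to 1.53). All 7 were thus more counted in the library labelled mutant, and by unequal amounts.

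The 41 nuclear subunits of complex I had a median log2 ratio of 0.08, against 0.48 for the mitochondrial ones, a gap of 0.40. Their intervals lay above 1 for 22, below 1 for 7 and across 1 for 12. For all 24009 measured genes these counts were 8178, 8188 and 7643. The nuclear subunits of the conserved catalytic core, which include the carriers of FMN and the iron-sulfur clusters, stood lower than the accessory ones: the 8 core genes had a median of −0.01 and the 33 accessory genes a median of 0.10, a difference that was not tested. Among the core genes, ndufv1, which carries the NADH-oxidising flavin, had 31110 counts in the library labelled mutant and 32800 in the library labelled wild type, a ratio of 1.005 (0.989 to 1.02). ndufs1, an iron-sulfur subunit of the same arm, had a ratio of 0.986 (0.969 to 1.003). Of the genes of the quinone module, ndufs7 and ndufs3 had ratios of 0.943 and 0.905. ndufs8b rested on 8 counts in the library labelled mutant and 10 in the library labelled wild type, so its ratio (0.291 to 2.385) is not resolved at this depth.

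Accessory genes gave both ends of complex I. ndufa12 had 6978 counts in the library labelled mutant and 5844 in the library labelled wild type, the highest nuclear ratio of the complex at 1.265 (1.222 to 1.31), followed by ndufb7 at 1.235, ndufb11 at 1.225 and ndufa4 at 1.203. These 4 lay above mt-nd3, and 13 of the 41 nuclear subunits had intervals that reached the lower bound of mt-nd3. The ndufa4 protein was first placed in complex I and is now counted with complex IV in mammals; its paralogue ndufa4l2 had 89 counts in the library labelled mutant and 87 in the library labelled wild type (1.084, 0.797 to 1.473). The duplicates of the mitochondrial acyl carrier protein differed: ndufab1a had 10319 counts in the library labelled mutant and 9363 in the library labelled wild type (1.168, 1.135 to 1.201), and ndufab1b had 5130 counts in the library labelled mutant and 6131 in the library labelled wild type (0.886, 0.854 to 0.92). Their intervals do not overlap and lie on both sides of 1. ndufab1b had the lowest ratio among nuclear complex I subunits with at least 50 counts. The symbol ndufv3 is carried by 2 identifiers, with ratios of 1.151 and 0.981.

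Of the genes that build complex I without staying in it, the 7 taken by name were all more counted in the library labelled mutant. Their median log2 ratio was 0.20. The 7 assembly factors ndufaf1 to ndufaf7 had ratios from 1.096 for ndufaf2 to 1.428 for ndufaf6, and every interval lay above 1. Such an interval was found for 8178 of all 24009 measured genes. ndufaf6, a factor needed in humans for early assembly, had 1313 counts in the library labelled mutant and 974 in the library labelled wild type (1.313 to 1.553). ndufaf7, another assembly factor, had 1549 counts in the library labelled mutant and 1324 in the library labelled wild type (1.239, 1.151 to 1.335). Of 35 measured assembly factors of the chain outside these names, 1 was higher and 0 lower at the 1.5-fold limit, with a median of 0.16. Among all measured genes 6.03% were higher and 6.66% lower. The higher factor is named rpl37 in the authors' table and COA1 in a current name table (1.66, 1.536 to 1.798), so its identity is uncertain.

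Complex II, succinate dehydrogenase, has no mitochondrially encoded subunit, and its genes were close to even. sdha, the flavoprotein that oxidises succinate, had 24630 counts in the library labelled mutant and 25444 in the library labelled wild type, a ratio of 1.025 (1.008 to 1.044). sdhb, its iron-sulfur partner, had 12311 counts in the library labelled mutant and 11447 in the library labelled wild type (1.139, 1.111 to 1.169). The membrane anchor genes sdhc and sdhdb had ratios of 1.021 and 1.053. The other anchor duplicate, sdhda, had 52 counts in the library labelled mutant and 68 in the library labelled wild type, and its interval of 0.553 to 1.18 holds 1. The assembly factor sdhaf2, which in humans helps attach FAD to the sdha protein, stood above all 5 subunits, with 2826 counts in the library labelled mutant and 2222 in the library labelled wild type (1.347, 1.274 to 1.425). sdhaf1, which serves the sdhb protein in humans, had a ratio of 1.079 (0.97 to 1.201).

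Complex III, the cytochrome bc1 complex, showed the widest gap of medians. Its only mitochondrial subunit, mt-cyb, which holds both quinone sites, had 275057 counts in the library labelled mutant and 193545 in the library labelled wild type, a ratio of 1.506 (1.497 to 1.514). That interval reaches just below the 1.5-fold limit, as does the interval of mt-nd4l. The 9 nuclear rows ranged from 0.884 to 1.178, with a median log2 ratio of 0.07 and a gap of 0.52 to mt-cyb. None of their intervals reached that of mt-cyb. The catalytic partners of cytochrome b did not share its ratio: cyc1, cytochrome c1, had 29557 counts in the library labelled mutant and 29239 in the library labelled wild type (1.071, 1.054 to 1.088). The Rieske iron-sulfur gene uqcrfs1, carried by 2 identifiers, had ratios of 0.94 (0.917 to 0.964) and 0.884 (0.857 to 0.913). The core protein genes split as well, with uqcrc1 at 1.123, uqcrc2a at 0.932 and uqcrc2b at 0.923. At the upper end, uqcrq had 11927 counts in the library labelled mutant and 10723 in the library labelled wild type (1.148 to 1.21).

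Complex IV, cytochrome c oxidase, held the highest mitochondrial ratio and the lowest nuclear ratio among all members. mt-co1, which carries the oxygen-reducing heme and copper centre, had 1177844 counts in the library labelled mutant and 769413 in the library labelled wild type. Its ratio of 1.62 (1.617 to 1.626) was exceeded by 9.84% of all measured genes. mt-co2, which takes electrons from cytochrome c, had 378407 counts in the library labelled mutant and 274876 in the library labelled wild type (1.458, 1.451 to 1.466). mt-co3, the core subunit without a metal centre, had 353716 counts in the library labelled mutant and 285025 in the library labelled wild type (1.315, 1.308 to 1.321). The 3 intervals do not overlap, so the core genes of this complex differed from each other beyond counting error. Such intervals are narrow, and how often other genes counted as often differ in this way was not taken. The 17 nuclear rows had a median log2 ratio of 0.07, a gap of 0.47 to the mitochondrial median of 0.54. cox7a1 (1.315, 1.175 to 1.472) and cox6a2, both on few counts, were the only ones whose intervals reached that of mt-co3.

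Isoforms of complex IV subunits differed in ratio. cox4i1, the general isoform of subunit IV, had 36730 counts in the library labelled mutant and 37463 in the library labelled wild type (1.039, 1.024 to 1.054). cox4i2, whose mammalian counterpart is prominent in lung, had 743 counts in the library labelled mutant and 1114 in the library labelled wild type (0.707, 0.643 to 0.776). COX4I2 (2 of 2), which a current name table calls cox4i1l, was lower, with 480 counts in the library labelled mutant and 883 in the library labelled wild type, a ratio of 0.576 (0.514 to 0.644). Both rows named after COX4I2 thus lay below the general isoform with no overlap of intervals. cox6a1 had 31871 counts in the library labelled mutant and 28975 in the library labelled wild type (1.165, 1.147 to 1.184). The row named cox6a2, after a heart and skeletal muscle isoform of mammals, is called COX6A1 in a current name table, so its identity is uncertain. It had only 21 counts in the library labelled mutant and 25 in the library labelled wild type (0.474 to 1.656). cox7a1, another muscle isoform in mammals, had 695 counts in the library labelled mutant and 560 in the library labelled wild type. Its relatives cox7a2a and cox7a3 had ratios of 1.101 (1.075 to 1.128) and 0.983 (0.95 to 1.016), and cox8a had 1.13. A current name table calls the cox7a3 row COX7A2L.

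Complex V, the ATP synthase, showed the narrowest gap of medians. mt-atp6, which forms the proton path beside the rotor ring, had 319410 counts in the library labelled mutant and 263775 in the library labelled wild type, a ratio of 1.283 (1.276 to 1.289). mt-atp8, a small membrane subunit, had 57829 counts in the library labelled mutant and 48549 in the library labelled wild type (1.262, 1.247 to 1.277). The 19 nuclear subunits ranged from 0.841 to 1.255 with a median log2 ratio of 0.06, against 0.35 for the mitochondrial pair, a gap of 0.29. With counts summed over genes, so that the most counted genes weigh most, that gap was 0.39, against 0.38 in complex I. The most counted nuclear genes of the complex had ratios below 1: ATP5B, the beta subunit of the catalytic head, had 144299 counts in the library labelled mutant and 171669 in the library labelled wild type (0.89, 0.884 to 0.897), and atp5a1, its alpha subunit, had 138572 counts in the library labelled mutant and 158580 in the library labelled wild type (0.926, 0.919 to 0.932).

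Smaller parts of the ATP synthase gave other ratios. The stalk genes of the head, atp5c1, atp5d and atp5e, had ratios of 1.093, 0.998 and 1.255. atp5e had 7796 counts in the library labelled mutant and 6579 in the library labelled wild type, and its interval (1.215 to 1.297) was the only nuclear one of the complex to reach that of mt-atp8. The genes of the rotor ring, atp5g1, atp5g3a and atp5g3b, had ratios of 1.065, 1.042 and 1.039, with overlapping intervals. They encode nearly the same mature protein, and reads may be split among them. Of the peripheral stalk, atp5f1 had 46251 counts in the library labelled mutant and 48007 in the library labelled wild type (1.021), and atp5o and atp5h had ratios of 0.991 and 1.019. The rows named ATP5J (1 of 4), (2 of 4) and (3 of 4) had ratios of 1.161, 0.841 (0.666 to 1.061) and 1.125, and atp5j 1.045. A current name table does not name the (2 of 4) and (3 of 4) rows after ATP5J, so their identity is uncertain. atp5l, the membrane subunit g, had 19525 counts in the library labelled mutant and 23185 in the library labelled wild type (0.892, 0.875 to 0.909).

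A share within each complex removes the scaling of the libraries. Mitochondrially encoded genes held 69.9% of the subunit counts of complex I in the library labelled mutant and 64.0% in the library labelled wild type. For complex III the shares were 65.1% in the library labelled mutant and 56.1% in the library labelled wild type. For complex IV they were 89.7% in the library labelled mutant and 86.0% in the library labelled wild type, and for complex V 36.7% in the library labelled mutant and 30.7% in the library labelled wild type. Over these and complex II together the share was 70.4% (70.37 to 70.45) in the library labelled mutant and 62.5% (62.49 to 62.59) in the library labelled wild type. In all 4 complexes the share was higher in the library labelled mutant, by more than the counting intervals. Counts grow with transcript length, so these shares compare libraries and do not give a stoichiometry.

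**Figure D2:**
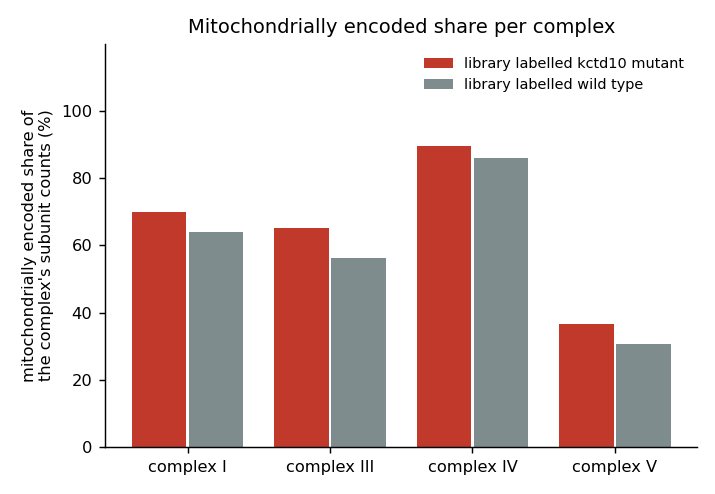
Mitochondrially encoded share of the subunit counts, in percent, for each complex with subunits of both genomes, in the library labelled mutant (left bars) and the library labelled wild type (right bars). The share is higher in the library labelled mutant in all 4, with the highest bars for complex IV (89.7% in the library labelled mutant and 86.0% in the library labelled wild type) and the lowest for complex V (36.7% in the library labelled mutant and 30.7% in the library labelled wild type).

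Along the mitochondrial genome the ratios were uneven. Gene order was taken from RefSeq's table of a later zebrafish assembly. mt-nd1 (1.263) and mt-nd2 (1.391) come first, followed by mt-co1, the highest of all at 1.62, and then mt-co2 (1.458). The next 4 genes, mt-atp8, mt-atp6, mt-co3 and mt-nd3, lay between 1.198 and 1.315. The last 5, mt-nd4l, mt-nd4, mt-nd5, mt-nd6 and mt-cyb, lay between 1.349 and 1.506. Of 78 pairs of mitochondrial genes, 73 had intervals that do not overlap. Intervals are narrow at such counts, and the share of such pairs among other genes counted as often was not taken. mt-atp8 and mt-atp6, which share a messenger RNA and overlap in sequence, were among the 5 pairs whose intervals overlap. mt-nd4l and mt-nd4 also share a messenger RNA and overlap, yet their ratios of 1.506 and 1.349 lay apart. The sources used here do not say how reads in the overlaps were assigned. In vertebrates mt-nd6 is read from the opposite strand to the other 12 genes, and without known use of strand its counts cannot be told from antisense RNA. Its ratio of 1.466 lay between those of its neighbours mt-nd5 and mt-cyb.

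**Figure D3:**
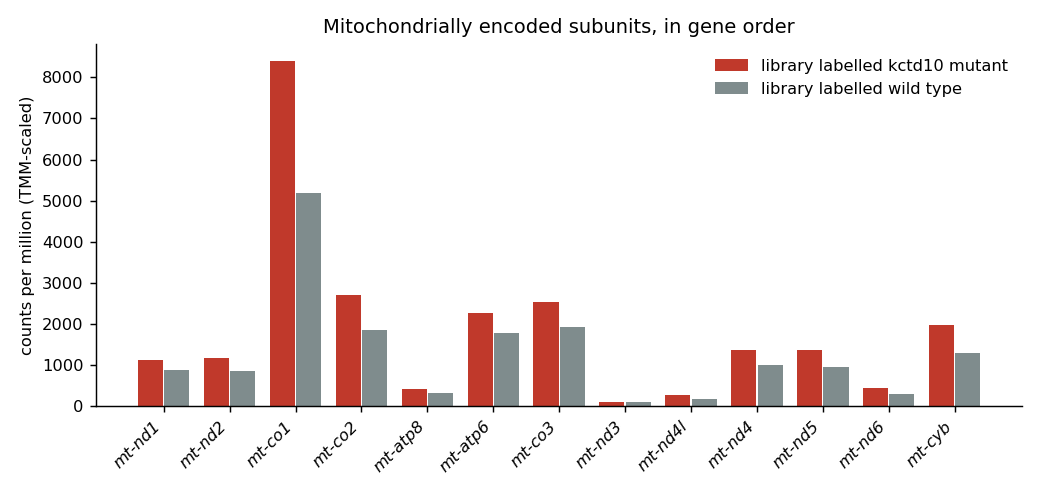
TMM-scaled CPM (counts relative to library size) of the 13 mitochondrially encoded genes in the library labelled mutant (left bars) and the library labelled wild type (right bars), in their order along the mitochondrial genome. Every gene is higher in the library labelled mutant under this scaling, from mt-nd3 (104.2 CPM in the library labelled mutant and 86.996 CPM in the library labelled wild type) to mt-co1 (8393 CPM in the library labelled mutant and 5175 CPM in the library labelled wild type). Relative to the cardiomyocyte markers only mt-co1 keeps a ratio above 1.

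The nuclear subunits were also read by how often they were counted. The 28 nuclear subunits with at least the 27560 counts of mt-nd3 had a median log2 ratio of 0.06 and a highest ratio of 1.165, below every mitochondrial gene. Of these 28, 20 had a ratio above 1 and 8 below. Among all 2010 genes counted that often, the median was −0.04. Nuclear subunits with at least 50 counts, split into tertiles by counts, had medians of 0.05, 0.10 and 0.06 from the least to the most counted. The 2 most counted, ATP5B and atp5a1, had ratios below 1 (0.89 and 0.926), and the next, atp5g3b, had 1.039. With only the most counted nuclear subunits, a choice made after seeing the data, the gap was 0.59 in complex III and 0.37 in complex IV.

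**Figure D4:**
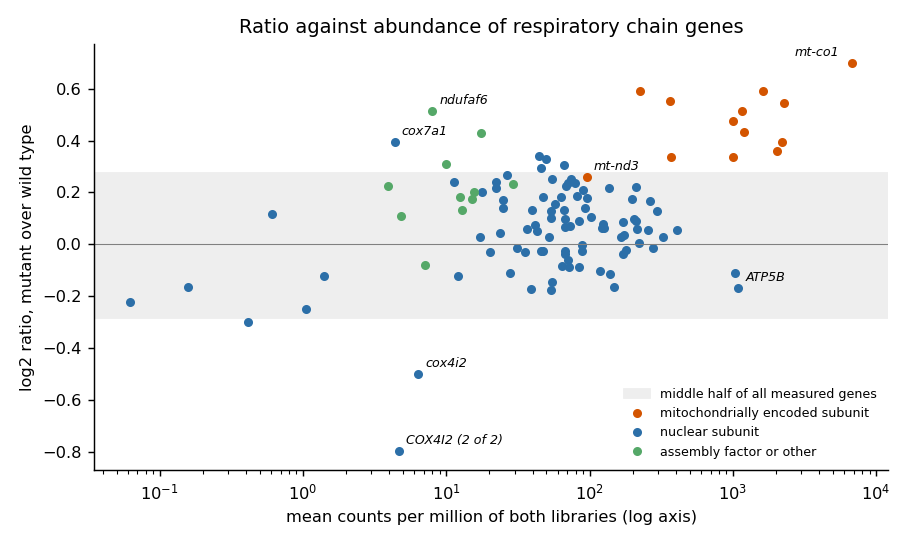
Log2 ratio between the libraries (mutant label over wild-type label) against the mean CPM of both libraries (log axis) for the 115 measured genes, with the interquartile range of all measured genes shaded. All mitochondrially encoded genes but mt-nd3 lie above the shaded band, and the nuclear genes of like abundance, such as ATP5B, lie within it.

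Other mitochondrial genes, all nuclear and from lists chosen with earlier results of these data known, had list medians closer to that of the nuclear subunits than to that of the mitochondrially encoded genes. Among all measured genes 6.03% were higher and 6.66% lower at the 1.5-fold limit. None of 73 mitochondrial ribosomal protein genes was higher or lower, with a median log2 ratio of 0.14 and a range of −0.18 to 0.44. Of 18 genes that maintain or transcribe mitochondrial DNA, 1 was higher and 0 lower, with a median of 0.14. The higher one, tfb1m, which methylates the small mitochondrial ribosomal RNA, had 702 counts in the library labelled mutant and 411 in the library labelled wild type (1.81, 1.6 to 2.05). tfam, which packages mitochondrial DNA and starts its transcription, had 6824 counts in the library labelled mutant and 6288 in the library labelled wild type (1.15, 1.11 to 1.19). Of 16 genes of mitochondrial RNA processing none was called, with a median of 0.17. lrpprc, which stabilises mitochondrial messenger RNA, had 17777 counts in the library labelled mutant and 21415 in the library labelled wild type (0.879, 0.862 to 0.897).

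Regulators of mitochondrial biogenesis were split. At the 1.5-fold limit none of 18 was called, 8 had a ratio above 1 and 10 below, and the median log2 ratio was −0.13. nrf1, the most counted, had 15830 counts in the library labelled mutant and 16491 in the library labelled wild type (1.017, 0.995 to 1.039). The lowest ratios, named after their values were seen, were those of ppargc1a (0.753, 0.71 to 0.798) and creb1b (0.759, 0.728 to 0.791), both wholly below 0.8. That is 2 of 18 regulators, against 12.8% of all measured genes below that limit. At the 1.5-fold limit none of 21 genes of the tricarboxylic acid cycle and pyruvate dehydrogenase was called (median 0.06, most counted IDH2 at 1.021). Nor was any of 22 import and inner membrane genes (median 0.10, most counted phb at 1.213). Of 12 electron carriers and nucleotide exchangers, slc25a4, the adenine nucleotide translocator of heart and muscle in mammals, was lower. It had 519 counts in the library labelled mutant and 2977 in the library labelled wild type (0.185, 0.168 to 0.203). Its relatives slc25a5 (0.752, 0.662 to 0.853) and slc25a6 (0.739, 0.589 to 0.924) also had intervals wholly below 1. Of the 12 genes, 6 had a ratio above 1 and 6 below. Over all measured genes 6.66% were called lower. The median of that list was −0.03, and vdac2, the most counted, had a ratio of 1.027. Skeletal muscle markers were lower in the same libraries, with a summed level of 1495 CPM in the library labelled mutant and 3840 in the library labelled wild type, and their part in the slc25a4 ratio was not tested.

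**Figure D5:**
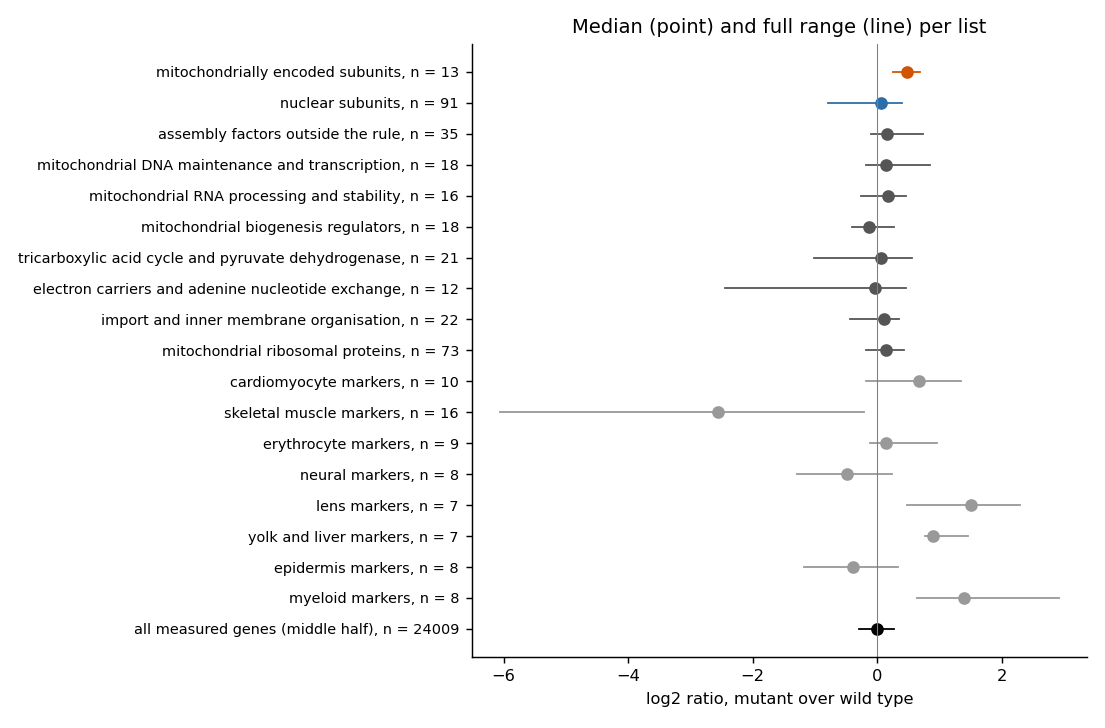
Median log2 ratio (points) and full range (lines) of the ratio between the libraries (mutant label over wild-type label) for the respiratory chain sets, other mitochondrial lists and marker lists, with the interquartile range for all measured genes. The mitochondrially encoded median of 0.48 lies below the cardiomyocyte marker median of 0.67 and above those of the other mitochondrial lists, which run from −0.13 to 0.17.

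Marker lists of several tissues also had median log2 ratios above 0 under TMM. Cardiomyocyte markers summed to 12707 CPM in the library labelled mutant and 8078 in the library labelled wild type, with log2 ratios from −0.17 to 1.35. vmhc, the ventricular myosin gene and the most counted of these markers, had a ratio of 1.491 (1.484 to 1.497). That ratio lies within the range of the mitochondrial genes, 1.198 to 1.62, as do those of myl7, actc1a, tnnt2a and tnni1b. Outside that range lay ttna (0.888), cmlc1 (1.625), nkx2.5 (1.972), myh6 (2.256) and nppa (2.548). Of the yolk and liver markers, ahsg, ttr and fabp10a had only 32, 18 and 14 counts in the library labelled mutant. Their counts in the library labelled wild type were 15, 11 and 8. The yolk and liver list (median 0.90, 4 of 7 higher) also leaned to the library labelled mutant. So did lens (1.501, 5 of 7) and myeloid markers (1.39, 7 of 8). These lists summed to 7046, 1701 and 253.8 CPM in that library, against 3271, 594.3 and 127.04 CPM in the library labelled wild type. Erythrocyte markers (median 0.14, 3 of 9 higher) were closer to even, with 8 ratios above 1 and the most counted, hbae3, at 0.926. The erythrocyte sums were 2946 CPM in the library labelled mutant and 2745 CPM in the library labelled wild type. By the same rule 6.03% of all measured genes were higher and 6.66% lower. Neural markers (median −0.49, 2 of 8 lower) and epidermal markers (−0.39, 2 of 8) leaned to the library labelled wild type. The neural genes gfap (1.179) and sox2 (1.145) and the epidermal gene krt8 (1.258) went the other way, with intervals wholly above 1. The neural and epidermal sums were 1311 and 26347 CPM in the library labelled mutant, against 1799 and 36515 CPM in the library labelled wild type. Most of the epidermal sum was krt4, with 21200 CPM in the library labelled mutant and 30271 CPM in the library labelled wild type. No marker list was at 0 in either library, and the part of any of these tissues in the mitochondrial ratios was not tested.

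The authors' deposited tables bear on the same genes. In the authors' deposited table of Ensembl genes, DESeq gave mt-co1 a fold of 1.616 with an unadjusted p of 0.0755, the lowest of any member, and an adjusted p of 1. COX4I2 (2 of 2) followed in the authors' deposited table with a fold of 0.574 and a p of 0.102. No member had an adjusted p under 1 there, while 442 genes had one under 0.05 in the authors' deposited table. The authors' deposited table of UniGene clusters names 53 clusters after nuclear subunits, with a median fold of 1.04, against 1.01 over all its clusters. It has no cluster that matched the names of mitochondrially encoded genes, so it cannot compare both gene sets. Its values for cox4i1 and cox4i2 were 1.05 and 0.72 in the authors' deposited table. The highest of these folds in the authors' deposited table, 1.96, belonged to ndufa4l, a name that no row of the Ensembl table carries.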

How the data were processed

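Illumina TruSeq libraries were made from RNeasy-purified total RNA, per the labels' protocols. TopHat, DESeq and the build Zv9 are named, without versions, per the submitters' processing notes. The counting tool, annotation release, strand setting and handling of multiply matching reads were not given in the sources used here. For 26126 Ensembl genes the authors' deposited values are raw counts, whole numbers without normalization. The line naming no gene held 9.17% of counts in the library labelled mutant and 9.21% in the library labelled wild type, and was left out of the totals. For each Ensembl gene the authors' deposited comparison gives a p-value with its adjusted value, a fold and the log2 of that fold, and a second one gives a fold per UniGene cluster, per the file headers, in which it is named OE over CON although the first line speaks of mutant and wild type. A further 6 columns of per-library values were left out.

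The count columns, named wt and mt, were assigned by these abbreviations. TMM factors came from genes with at least 10 counts (edgeR 4.0.16, R 4.3.3), giving effective sizes of 140343503 for the library labelled mutant and 148672670 for the library labelled wild type. Intervals were exact Clopper-Pearson (scipy 1.17.1), log2 ratios used 0.5 added to each count, CPM are counts scaled by these effective sizes, and medians are over log2 ratios. The median half-width of a member's interval was 0.04 on the log2 scale. Calls and the share of all genes called were made over the whole table, and the steps were checked on simulated counts. Amplified reads are not independent molecules.

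Members, lists and rules were chosen with earlier results of these data known. Named genes were the 13 mitochondrial genes, all called members, the most counted, highest and lowest nuclear subunit of each complex among those with at least 50 counts, and isoforms or duplicates; other members were named after their values were seen. Of 301 list entries 280 matched a name, first in the authors' table and then in a current one. RefSeq's table (GRCz12tu) gave gene order only. No sequences or gene lengths were used. The values of 1 nuclear subunit are not reported here.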

Additional observations from a re-analysis of the deposited data

How the results depend on the processing

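No paired analysis was possible because each genotype has 1 library, and no library could be left out. The gap between mitochondrial and nuclear medians stayed above 0 in all 63 recomputations over complexes I, III, IV and V, from 0.29 to 0.59. Those that only changed the common scaling, and in effect the authors' deposited fold, had an outcome fixed in advance. Such a change cannot alter the gap. In complex III other settings also changed no gene, so they could not move the gap there. These were the count minimums, assembly factors, copies, overlapping genes, current names and the ndufa4 move. Taking means moved it to 0.57 in complex III and 0.54 in complex IV, summed counts moved it to 0.39 in complex V, and keeping only the most counted nuclear subunits, chosen after seeing the data, gave 0.59 in complex III and 0.37 in complex IV. The median of the mitochondrial genes lay between 0.46 and 0.54 (0.537 from summed counts) and that of the nuclear subunits between 0.03 and 0.10 in every setting except the scaling to cardiomyocyte markers. That scaling, chosen after seeing the data, turned them to −0.196 and −0.609, with 12 of 13 mitochondrial genes and all 91 nuclear subunits below 0. It called 38 members, all lower, and 10605 genes in all (404 higher, 10201 lower), against 3047 (1447 higher, 1600 lower) under TMM.

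The count of 2 called members depends on the limit. It was 4 with library totals, with totals lacking the mitochondrial genes and with the authors' deposited fold (which has no interval), each adding mt-cyb and mt-nd4l, 1 with a 99% interval, which drops COX4I2 (2 of 2), 15 at the smaller limit (25% above even, or below 0.8) and 0 at 2-fold. All genes called numbered 5961 at that smaller limit and 1312 at 2-fold. The 99% interval, DESeq2 1.42.0 factors, upper-quartile factors, other count minimums, 1 added to each count, assembly factors included, copies or overlapping genes left out, ndufa4 moved to complex IV and a current name table kept the remaining summaries within the tolerance of 0.04 (log2) or 1.5-fold (counts).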

Other observations

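A current name table adds 9 measured genes of the chain that the authors' table lists under other names. The inhibitor genes of the ATP synthase, atpif1b and atpif1a, had 7952 and 11826 counts in the library labelled mutant, against 6594 and 10374 in the library labelled wild type, with ratios of 1.278 (1.236 to 1.32) and 1.208 (1.176 to 1.24). zgc:193541, called atp5mj in the current table, had 18294 counts in the library labelled mutant and 15286 in the library labelled wild type (1.268, 1.241 to 1.295), above every nuclear subunit of complex V in the authors' naming. The main copy of cytochrome c oxidase subunit Vb, zgc:86599, had 23267 counts in the library labelled mutant and 23320 in the library labelled wild type (1.057, 1.038 to 1.076). Its relative cox5b2 had 189 counts in the library labelled mutant and 218 in the library labelled wild type. USMG5, a further membrane subunit of the ATP synthase, had a ratio of 0.95 (0.917 to 0.983). None of the 9 was called at the 1.5-fold limit.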
